A study of Mus musculus with 12 samples.

Results

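The respiratory chain genes of whole newborn mouse lung are described here: the nuclear genes for the subunits of complexes I to V of the inner mitochondrial membrane. They were chosen by name, as the array symbols that begin with Nduf, Sdh, Uqcr, Atp5 or Cox4 to Cox8, which matched 91 symbols. 13 of these name assembly factors or a pseudogene and were left out, and 78 genes remained of the 19057 with a single symbol on the array. They comprised 34 genes of complex I, 4 of complex II, 7 of complex III, 17 of complex IV and 16 of complex V. The lungs of 6 Foxf1+/- pups and of 6 wildtype littermates were taken at postnatal day 0.5, all on a mixed 129 and C57BL6/J background, with 1 lung on each Illumina MouseWG-6 v2.0 array. The Foxf1+/- pups carry a null allele, transmitted through the germ line, that EIIa-Cre made by removing exon 1 of Foxf1 together with a stretch of its promoter. The labels and methods leave unsaid whether the pups also carry EIIa-Cre. The question addressed is whether the loss of 1 copy of this transcription factor of lung mesenchyme and endothelium goes with a change in the genes of oxidative phosphorylation.

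The respiratory chain passes electrons from NADH (complex I) and succinate (complex II) through complex III and cytochrome c to oxygen at complex IV, and complex V, the ATP synthase, uses the proton gradient built on the way. Most subunits are made in every cell with mitochondria, while several subunits of complex IV exist as isoforms restricted to heart and skeletal muscle, testis or lung. The subunits encoded by mitochondrial DNA are not among the genes described, and Cox8a, Cox7c, Atp5g1, Uqcrb, Ndufs5 and Ndufa4l2 were not analysed here.

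All values are log2 levels after background correction and quantile normalization, a fold change is the log2 difference of Foxf1+/- over wildtype with its SE, and a gene is called where limma's adjusted p over all 33947 probes tested lay under 0.05. The arrays fell by their raw signal into a brighter experiment A (Foxf1+/- replicates 1 to 4 and wildtype replicates 1 and 2, raw medians 72.8 to 89.3) and a dimmer experiment B (Foxf1+/- replicates 5 and 6 and wildtype replicates 3 to 6, raw medians 57.3 to 62.6), and the experiment was a term of the fit. The number of arrays limits the precision. Foxf1 was lower in the Foxf1+/- lungs by 1.00 ± 0.13 on the log2 scale (adjusted p = 0.00224, 2.00-fold lower), with levels of 9.999 to 11.35 in Foxf1+/- lungs and 11.08 to 12.02 in wildtype lungs, and with all Foxf1+/- lungs below all wildtype lungs within each experiment. The sources used here do not place its probe inside or outside the deleted part. All 8 alveolar type 2 markers and all 10 lung endothelial markers were above the floor of the array. Limma called 6 of the 10 mast cell markers higher and 1 lower, and 1 of the 10 endothelial markers higher and 3 lower. The shares of all probes called were 1.74% higher and 1.22% lower. In bulk lung, fewer cells of a type and less RNA per cell cannot be told apart.

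The respiratory chain genes did not move as a group between the genotypes. Of the 78 genes 74 passed the filter on dim probes, and of these 0 were called higher and 1, Ndufb9, was called lower, against 2.97% of all probes called, 1.74% higher and 1.22% lower. With no adjustment, p lay under 0.05 for 1 member that was higher (9.07% of all probes) and for 5 that were lower (7.45% of all probes). The median fold change of the members was 0.01, beside 0.00 for all probes tested, and 42 were positive and 32 negative. The 95% confidence interval of the fold change lay within ±0.5 for 67 of the 74 members (90.5%, beside 87.5% of all probes) and within ±0.3 for 45 of them (60.8%, beside 61.7%). Over all genes tested with 1 probe each, the shares were 83.8% and 54.0%. A change of the size seen for Foxf1 thus lay outside the interval of those 67 genes. Of the 70 members not near the floor of the array, 63 had such an interval. The others of the 67 lay near the floor (Atp5md, Cox7b, Ndufb4 and Uqcrfs1). There the background correction damps fold changes, so their intervals do not bound the change in RNA. 43 further probes stand for 31 of the members, and of the 36 tested 0 were called by limma, the lowest adjusted p being 0.0768 for a dimmer probe of Sdhb, the iron-sulfur subunit of complex II (0.27 ± 0.07). 23 of the 36 had the sign of the gene's main probe.

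**Figure D1:**
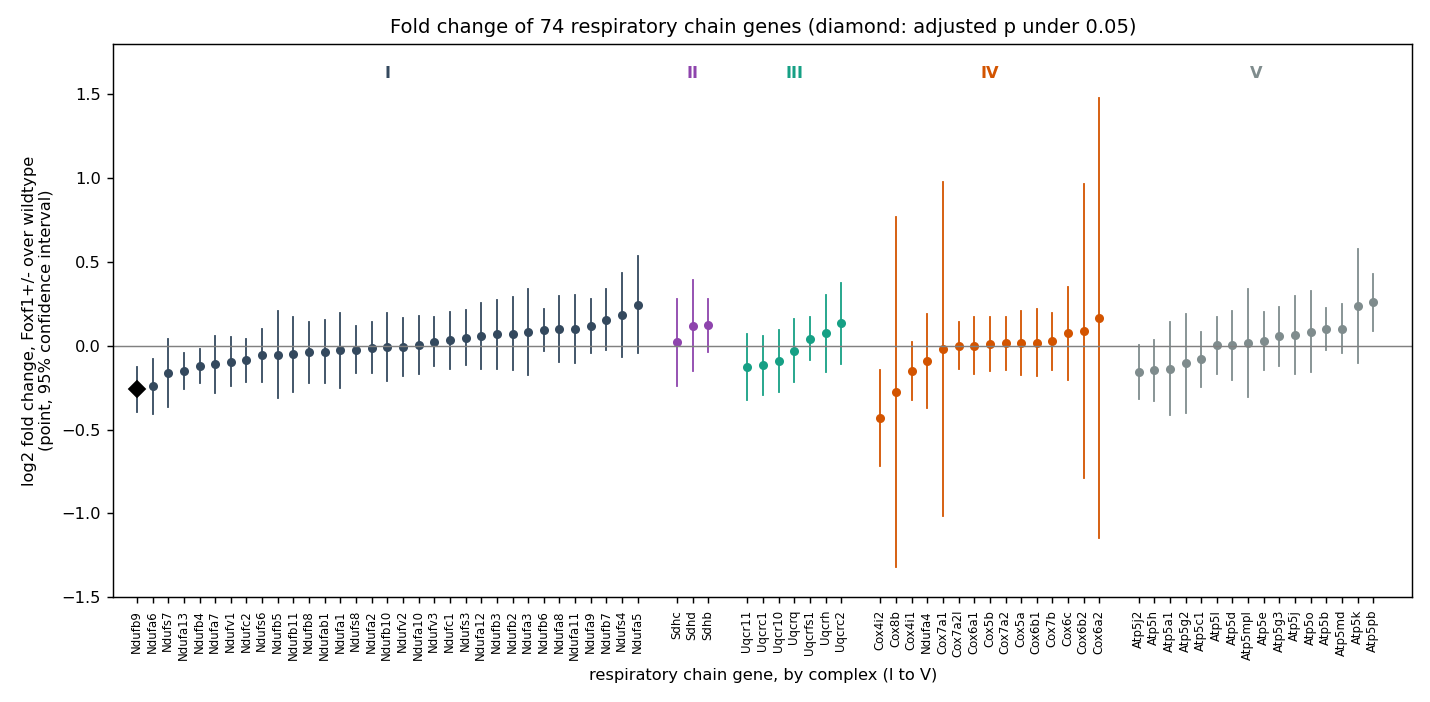
Log2 fold change of Foxf1+/- over wildtype lungs for the 74 respiratory chain genes tested, with 95% confidence intervals, ordered within complexes I to V. Ndufb9 (diamond) at -0.26 is the called gene, and the widest intervals belong to Cox6a2, Cox8b, Cox7a1 and Cox6b2 of complex IV.

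The complexes gave similar pictures. The median fold change was -0.01 over the 33 tested genes of complex I, 0.12 over the 3 of complex II, -0.03 over the 7 of complex III, 0.01 over the 15 of complex IV and 0.02 over the 16 of complex V. To follow each lung, the level of every member was set against the wildtype mean of the same experiment, and the median was taken over the members. It ran from -0.11 to 0.11 in the Foxf1+/- lungs and from -0.07 to 0.08 in the wildtype lungs. The lowest and the highest of all 12 values were those of Foxf1+/- replicates 5 and 6, the pair of experiment B, so that the lungs of this genotype spanned the wildtype range on both sides. For complex I the range was -0.12 to 0.09 in Foxf1+/- and -0.09 to 0.05 in wildtype lungs, and for complex V it was -0.08 to 0.14 in Foxf1+/- and -0.07 to 0.10 in wildtype lungs. Complex II, with 3 genes, had the highest values in Foxf1+/- replicates 1 (0.22) and 2 (0.25), against up to 0.13 in wildtype lungs. The ranges of the genotypes overlapped for every complex. Wildtype replicate 5 had the highest wildtype value over all members and for complexes I, III, IV and V, and this lung stood apart in its T and NK cell markers: their mean level was 7.88 there, against 6.09 to 6.23 in Foxf1+/- lungs and 6.18 to 6.30 in the other wildtype lungs, where all 11 markers lay near the floor on average in at least 1 genotype. The part of these cells in its values was not tested. Without Foxf1+/- replicate 5 the median fold change of the members was 0.05 and without Foxf1+/- replicate 6 it was -0.04, and no call was made in either fit. A test of the difference between the experiments in the genotype effect called 0 of all probes (1142 at an unadjusted p under 0.05). Among the members Uqcrq of complex III alone passed an unadjusted p under 0.05 in limma's test of that difference (adjusted p = 0.999), at 0.15 within experiment A and -0.21 within experiment B.

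**Figure D2:**
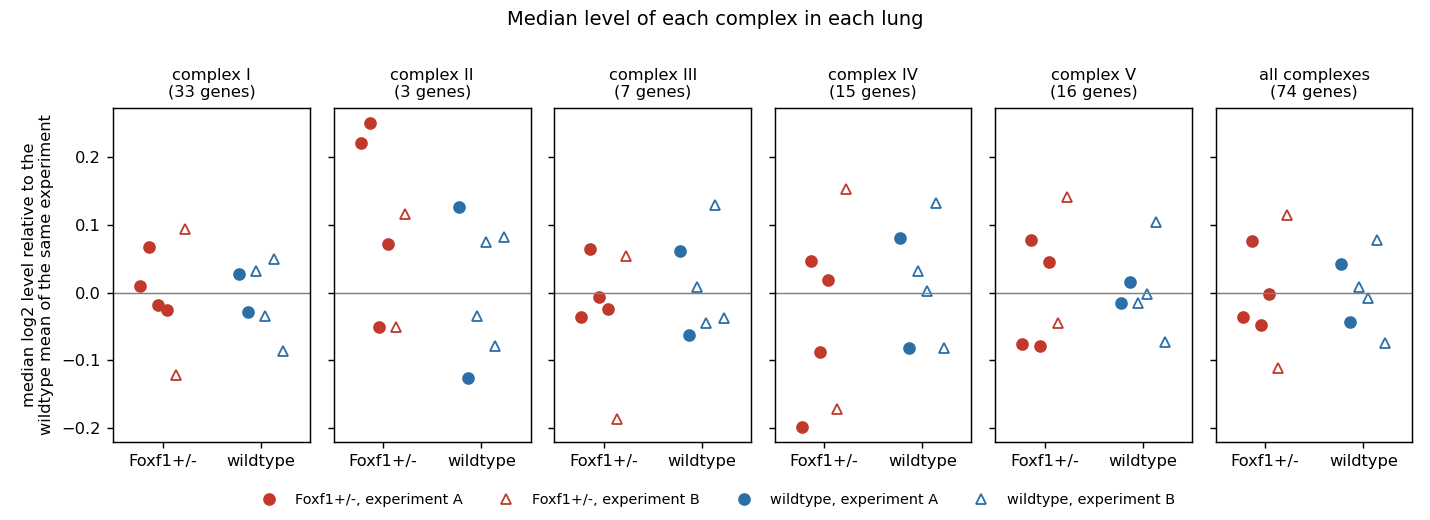
Median log2 level of the members of each complex in each lung, relative to the wildtype mean of the same experiment, Foxf1+/- left and wildtype right, with filled circles for experiment A and open triangles for experiment B. Over all complexes Foxf1+/- lungs lie between -0.11 and 0.11 and wildtype lungs between -0.07 and 0.08.

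Complex I, the NADH dehydrogenase, held the single called gene. Ndufb9, an accessory subunit of the membrane arm, had levels of 7.17, 7.19, 7.13 and 7.33 in Foxf1+/- lungs of experiment A, against 7.63 and 7.33 in wildtype lungs. In experiment B it stood at 6.71 and 6.77 in Foxf1+/- lungs, against 7.02, 6.90, 7.04 and 6.99 in wildtype lungs. Every Foxf1+/- lung lay below every wildtype lung of its experiment, in experiment A by a narrow margin, and over both experiments the groups overlapped. Ndufb9 fell by 0.26 ± 0.06 (adjusted p = 0.0447), 1.20-fold lower. The call was lost when any array but Foxf1+/- replicate 4 or wildtype replicate 2 was left out (-0.28 to -0.20, adjusted p 0.0521 to 0.156), and without wildtype replicate 1 the fold change was -0.20. A single call among 74 genes is a share near that of all probes called lower.

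The catalytic and redox core of complex I showed no change that passed the test. Ndufv1, the flavoprotein that accepts electrons from NADH, had a fold change of -0.10 ± 0.07, and its partner Ndufv2 one of -0.01 ± 0.08. Ndufs1, the largest iron-sulfur subunit, was at the floor of the array (5.90 in Foxf1+/- and 5.90 in wildtype lungs) and was not tested. With 1 probe for Ndufs1, a floor signal does not show that the transcript is absent. Ndufs7, which carries the last iron-sulfur cluster before ubiquinone, was at -0.16 ± 0.09 (adjusted p = 0.44). Ndufs4, whose loss in mice causes a Leigh-like encephalopathy, was at 0.18 ± 0.12 on its brightest probe and between -0.04 and 0.14 on 3 others. None of these genes was called.

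Among the accessory subunits, Ndufa6 came next after Ndufb9. It had levels of 12.38, 12.50, 12.30, 12.58, 12.50 and 12.86 in Foxf1+/- lungs, against 12.69, 12.77, 12.85, 12.91, 12.96 and 12.78 in wildtype lungs. Foxf1+/- replicate 6 lay inside the wildtype range and the other 5 lay below it, for a fold change of -0.24 ± 0.08 (adjusted p = 0.12). Ndufa13, also known as Grim19, was lower in all Foxf1+/- lungs within each experiment, at 12.85 to 12.95 against 12.96 to 13.04 in wildtype lungs of experiment A and at 12.96 and 13.04 against 13.13 to 13.28 in those of experiment B, and its difference of -0.15 ± 0.05 had an adjusted p of 0.143. Ndufb4 was at -0.12 ± 0.05 (adjusted p = 0.216), close to the floor of the array. Ndufa13 and Ndufb4 are named because they complete the members lower at an unadjusted p under 0.05. At the other end stood Ndufa5, with 11.70 to 12.11 in Foxf1+/- and 11.28 to 12.03 in wildtype lungs (0.25 ± 0.13, adjusted p = 0.401, and -0.04 on a second, dim probe), and Ndufb7 (0.16 ± 0.08, adjusted p = 0.392). The X-linked Ndufa1 (-0.03 ± 0.10) and Ndufb11 (-0.05 ± 0.10) had fold changes below their SE.

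**Figure D3:**
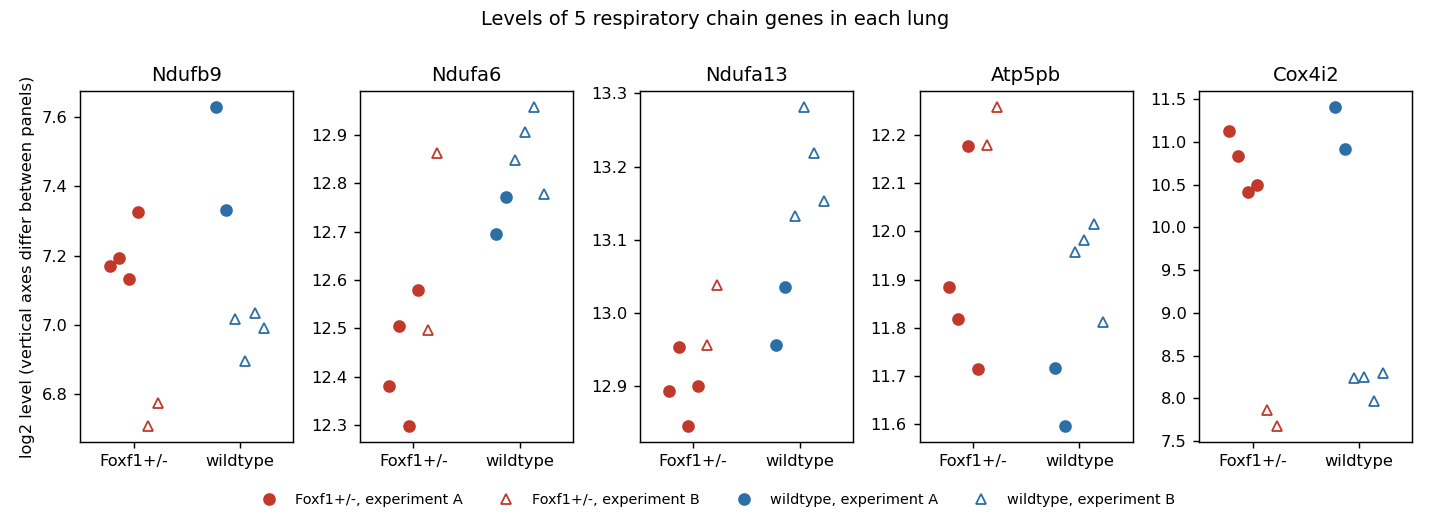
Log2 level of Ndufb9, Ndufa6, Ndufa13, Atp5pb and Cox4i2 in each lung, Foxf1+/- left and wildtype right, with filled circles for experiment A and open triangles for experiment B. Ndufb9 and Ndufa13 are lower in all Foxf1+/- lungs within each experiment, and the levels of Cox4i2 differ between the experiments by 2.96.

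Complexes II and III, which make and oxidize ubiquinol, held no called gene. Sdha, the flavoprotein of succinate dehydrogenase, was at the floor of the array (5.91 in Foxf1+/- and 5.96 in wildtype lungs) and was not tested. It rests on 1 probe, and whether that probe reports the transcript is not known from these data. Sdhb was at 10.32 to 11.07 in Foxf1+/- and 10.24 to 10.87 in wildtype lungs (0.12 ± 0.07, adjusted p = 0.453), and the membrane anchors Sdhd (0.12 ± 0.12) and Sdhc (0.02 ± 0.12) were not called. In complex III the core proteins Uqcrc1 (-0.12 ± 0.08) and Uqcrc2 (0.14 ± 0.11) had fold changes of opposite sign. The Rieske iron-sulfur protein Uqcrfs1 lay near the floor at 6.17 in Foxf1+/- and 6.22 in wildtype lungs (0.04 ± 0.06). The intervals of all 10 tested genes of both complexes lay within ±0.5.

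Complex V showed the highest fold change of all members. Atp5pb, the b subunit of the peripheral stalk that holds the F1 head, had levels of 11.89, 11.82, 12.18, 11.71, 12.18 and 12.26 in Foxf1+/- lungs, against 11.72, 11.60, 11.96, 11.98, 12.02 and 11.81 in wildtype lungs. The groups overlapped in experiment A, and in experiment B both Foxf1+/- lungs lay above all wildtype lungs. The fold change was 0.26 ± 0.08 (adjusted p = 0.106). Its other probes, which were dimmer, were at 0.10, -0.05 and -0.07. Atp5k, the e subunit, was at 7.38 to 8.41 in Foxf1+/- and 7.42 to 7.98 in wildtype lungs (0.24 ± 0.16, adjusted p = 0.51). Atp5j2, the f subunit, was at -0.15 ± 0.07 (adjusted p = 0.321). In the F1 head, Atp5b was at 0.10 ± 0.06 (adjusted p = 0.42) and Atp5a1 at -0.14 ± 0.13 (adjusted p = 0.679). A second, slightly dimmer probe of Atp5a1 was at 0.04 ± 0.09. The proton-carrying c subunit is made from several genes with the same mature product, of which Atp5g2 was at -0.10 ± 0.14 and Atp5g3 at 0.06 ± 0.08.

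Complex IV, cytochrome c oxidase, held the members with the widest spread between lungs. The interval of the fold change exceeded ±0.5 for 5 of its 15 tested genes, against 1 of 33 in complex I (Ndufa5), 1 of 16 in complex V (Atp5k) and none of the 10 in complexes II and III. The residual SD, the spread of a gene between lungs once genotype and experiment are taken out, was 1.15 for Cox6a2, 0.91 for Cox8b, 0.87 for Cox7a1 and 0.77 for Cox6b2, and at most 0.29 for the other 70 members. The median was 0.15 over the members, 0.13 over all probes and 0.15 over all genes tested with 1 probe each. The genes with the wide spread are tissue isoforms, and their partners made in most tissues had fold changes near 0. Cox6a1 was at 0.00 ± 0.08, Cox7a2 at 0.01 ± 0.07 and Cox6b1 at 0.02 ± 0.09. Cox7a2l, counted with complex IV by its name, was at 0.00 ± 0.07. Cox4i1, through which ATP can slow the enzyme, was at -0.15 ± 0.08 (adjusted p = 0.391), and Ndufa4, a subunit of complex IV despite its name, at -0.09 ± 0.13. The X-linked Cox7b lay near the floor (0.03 ± 0.08). The testis isoforms Cox7b2 (5.88 in Foxf1+/- and 5.98 in wildtype lungs) and Cox8c (5.85 in Foxf1+/- and 5.92 in wildtype lungs) were at the floor of the array.

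Cox6a2, Cox7a1 and Cox8b are the isoforms of heart and skeletal muscle, and Cox7a1 and Cox8b are also made in brown fat. Cox6a2 had levels of 10.60, 12.67, 9.29, 12.15, 10.995 and 12.64 in Foxf1+/- lungs, against 12.04, 10.35, 12.07, 11.70, 11.84 and 10.30 in wildtype lungs. Foxf1+/- replicates 1, 3 and 5 and wildtype replicates 2 and 6 were low and the other 7 lungs high, in both genotypes and both experiments, and the lowest and highest Foxf1+/- lungs differed by more than 3 on the log2 scale. Cox7a1 had levels of 9.20, 10.94, 8.68, 10.13, 8.81 and 10.54 in Foxf1+/- lungs, against 10.37, 9.31, 10.09, 9.46, 10.30 and 8.59 in wildtype lungs. Cox8b had levels of 8.40, 10.26, 7.91, 10.04, 8.83 and 10.33 in Foxf1+/- lungs, against 9.93, 8.92, 10.22, 9.85, 10.57 and 8.81 in wildtype lungs. The same 5 lungs were the lowest for Cox6a2 and Cox8b, and for Cox7a1 they were joined closely by wildtype replicate 4. None of the isoforms was called between the genotypes, with fold changes of 0.16 ± 0.60 for Cox6a2, -0.02 ± 0.46 for Cox7a1 and -0.28 ± 0.48 for Cox8b (adjusted p of 0.935, 0.991 and 0.845), and each 95% interval reached beyond a 2-fold change in at least 1 direction.

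The levels of these isoforms moved with markers of cardiac muscle across the lungs. Over 12 lungs the mean level of 13 cardiac muscle markers (none of them a member) gave a Pearson's r of 0.964 and a Spearman's rho of 1.00 with Cox6a2, 0.912 and 0.909 with Cox7a1, and 0.860 and 0.846 with Cox8b. The permutation p of these r values, from 100000 resamples, was 1e-05 (the smallest they can give), 5e-05 and 0.00026, and 6e-05, 0.00015 and 0.00052 after Benjamini-Hochberg adjustment over the 6 relations computed. For rho it was 1e-05 (again the smallest), 0.00016 and 0.00107, and 6e-05, 0.00048 and 0.00214 after adjustment. Without the 2 lungs farthest from the median marker level r was 0.949, 0.868 and 0.779. Within experiment A it was 0.988, 0.979 and 0.938, and within experiment B 0.954, 0.862 and 0.820 (exact permutation p 0.00139 to 0.0222). With 16 skeletal muscle markers r was 0.764, 0.693 and 0.842, and rho 0.685, 0.622 and 0.741, for Cox6a2, Cox7a1 and Cox8b (adjusted permutation p 0.00183 to 0.0154 for r and 0.0121 to 0.0344 for rho). For Cox6a2 and Cox7a1 that relation was weaker within experiment A (r 0.663 and 0.591, exact permutation p = 0.168 and 0.21) than within experiment B (r 0.942 and 0.900). These relations were chosen after the values were seen.

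The muscle markers themselves did not differ between the genotypes beyond their spread. Of the 13 cardiac markers 0 were called by limma in either direction (0 at an unadjusted p under 0.05), none lay at the floor, and their summed signal on the log2 scale ran from 13.9 to 16.8 in Foxf1+/- and from 14.2 to 16.4 in wildtype lungs. Of the 16 skeletal markers 0 were called (1 at an unadjusted p under 0.05), with Casq1 near the floor, and their sum ran from 11.6 to 15.0 in Foxf1+/- and from 11.5 to 14.7 in wildtype lungs. Of 9 brown fat markers 6 were tested and 0 called by limma (0 at an unadjusted p under 0.05), Ucp1, Plin1, Dio2, Elovl3 and Fabp4 lay near the floor in at least 1 genotype, and their sum ran from 10.6 to 12.1 in Foxf1+/- and from 11.1 to 11.9 in wildtype lungs. Wildtype replicate 5, the lung with the highest Cox8b, also had the highest Ucp1 (7.76, against 5.93 to 6.94 in the others). With the skeletal marker level as a covariate the fold change of Cox6a2 was 0.50 ± 0.39, the fold change of Cox7a1 was 0.22 ± 0.32 and the fold change of Cox8b was 0.00 ± 0.28 (adjusted p of 0.561, 0.784 and 0.999). With the cardiac marker level as a covariate, an alternative chosen after seeing the data, the fold changes were -0.11 ± 0.13 for Cox6a2, -0.21 ± 0.18 for Cox7a1 and -0.48 ± 0.18 for Cox8b (adjusted p of 0.768, 0.627 and 0.199). The sign of Cox6a2 and Cox7a1 thus depended on which muscle markers were used. In the fit with cardiac markers the SE of each was less than 0.5 times that of the fit without the covariate, and that of Cox6a2 came to 0.13, beside 0.60.

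**Figure D4:**
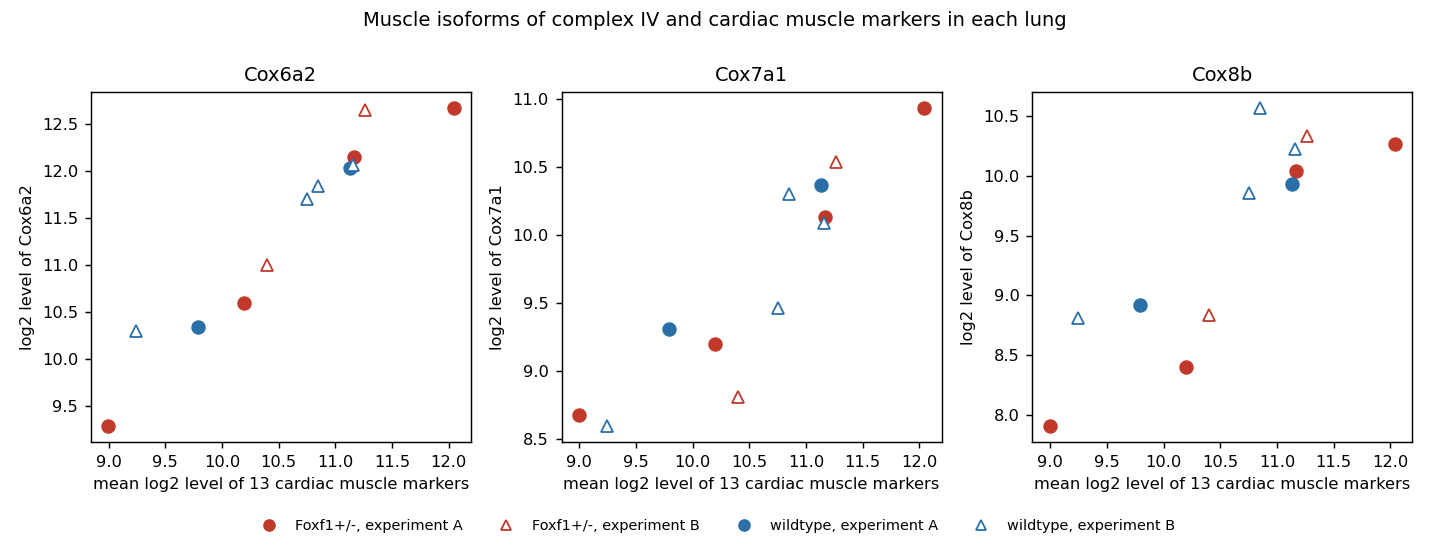
Log2 level of Cox6a2, Cox7a1 and Cox8b in each lung against the mean log2 level of 13 cardiac muscle markers, with red for Foxf1+/-, blue for wildtype, filled circles for experiment A and open triangles for experiment B. Lungs of both genotypes lie along 1 rising band in each panel, with r of 0.964, 0.912 and 0.860.

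Promoters are shown for Cox7a1 and Cox8b of the 3 muscle isoforms, for Cox6a1 as the partner of Cox6a2 made in most tissues, and for Atp5pb as the member with the highest fold change. The sequences are those of RefSeq (GRCm38.p6), from 250 bases before to 50 after the start of the gene, 5′ to 3′ on its own strand. Capitals mark an E-box in Cox8b, an NRF1 match in Cox6a1 and a YY1 match in Atp5pb.
Cox7a1 (chr7:30183921-30184220, plus strand): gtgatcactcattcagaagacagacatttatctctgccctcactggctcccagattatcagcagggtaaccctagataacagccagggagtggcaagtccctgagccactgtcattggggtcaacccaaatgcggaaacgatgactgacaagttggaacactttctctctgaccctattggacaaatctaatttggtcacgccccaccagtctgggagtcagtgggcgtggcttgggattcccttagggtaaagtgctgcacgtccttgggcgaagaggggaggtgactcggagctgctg
Cox8b (chr7:140900397-140900696, minus strand): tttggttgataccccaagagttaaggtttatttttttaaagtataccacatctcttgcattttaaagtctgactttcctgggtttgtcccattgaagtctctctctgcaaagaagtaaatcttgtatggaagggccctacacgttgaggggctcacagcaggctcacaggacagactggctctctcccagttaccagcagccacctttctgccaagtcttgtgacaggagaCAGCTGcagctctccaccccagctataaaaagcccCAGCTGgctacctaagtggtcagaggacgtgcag
Cox6a1 (chr5:115348909-115349208, minus strand): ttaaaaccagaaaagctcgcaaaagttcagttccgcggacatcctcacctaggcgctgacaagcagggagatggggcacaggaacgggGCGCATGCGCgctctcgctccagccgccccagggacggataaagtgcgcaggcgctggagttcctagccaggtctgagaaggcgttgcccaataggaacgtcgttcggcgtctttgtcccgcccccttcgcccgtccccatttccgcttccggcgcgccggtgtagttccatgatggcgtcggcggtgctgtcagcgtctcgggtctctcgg
Atp5pb (chr3:105959214-105959513, minus strand): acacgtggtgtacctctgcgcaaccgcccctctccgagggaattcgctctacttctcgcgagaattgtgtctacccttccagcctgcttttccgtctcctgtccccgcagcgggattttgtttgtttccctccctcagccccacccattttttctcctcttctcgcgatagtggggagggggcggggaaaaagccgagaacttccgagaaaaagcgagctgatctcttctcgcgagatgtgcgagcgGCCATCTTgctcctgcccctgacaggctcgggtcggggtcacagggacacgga
65 of the 78 members had such windows, 70 in all. Each was searched on both strands for NRF1 (GCGCATGCG), GABPA (CCGGAAGT), ERR (TCAAGGTCA), YY1 (AAGATGGC) and CREB (TGACGTCA), the names of factors known to drive nuclear genes of mitochondria. NRF1 letters were in 11.4% of the member windows and 1.75% of all 32851 windows, and YY1 letters in 14.3% and 2.75%. ERR letters were in 2.86% and 0.42%, CREB letters in 5.71% and 1.79%, and GABPA letters in 5.71% and 3.89%. At least 1 of the 5 was in 37.1% of member windows and 9.88% of all. Member windows were richer in G and C (median 58.0%, beside 52.7%). The NRF1 letters are nearly their own reverse complement, so that the stretch in Cox6a1 matched on both strands. None of the 5 was found in the windows of Cox7a1 and Cox8b. An E-box (CAGCTG), a motif of muscle factors added after seeing the data, was in 7.14% of member windows and 16.3% of all and matched Cox8b at 2 places, and a MEF2 motif (TAAAAATA), added likewise, was in 0 of the 70 member windows and 2.72% of all. A match is a description of the letters and not a bound site.

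Cox4i2 is the isoform of subunit 4 made mainly in lung, and in mice it takes part in oxygen sensing of the pulmonary arteries. It had levels of 11.13, 10.84, 10.42 and 10.50 in Foxf1+/- lungs of experiment A, against 11.41 and 10.92 in wildtype lungs. In experiment B it had levels of 7.86 and 7.68 in Foxf1+/- lungs, against 8.23, 8.25, 7.97 and 8.30 in wildtype lungs. The groups overlapped in experiment A, where Foxf1+/- replicate 1 lay between the wildtype lungs, and did not overlap in experiment B. The fold change of -0.43 ± 0.13 was the lowest of all members and was not called (adjusted p = 0.114), at -0.44 within experiment A and -0.42 within experiment B. Without Foxf1+/- replicate 1 it was -0.49 with an adjusted p of 0.0403, and without any other single array it was not called (-0.52 to -0.34). The difference between the experiments was larger than that between the genotypes: levels in experiment A exceeded those in experiment B by 2.96, and of all 33947 probes 1 had a larger difference in either direction. The raw signal was 1862 to 3118 in the 6 arrays of experiment A and 131.5 to 227 in those of experiment B, while the median absolute difference between experiments was 0.20 over the members and 0.18 over all probes. In the authors' processed values, from which the experiment was removed, Cox4i2 was at 9.40 to 10.02 in Foxf1+/- and 9.68 to 10.30 in wildtype lungs. Of the 12 smooth muscle and pericyte markers, Cox4i2 among them, 0 were called by limma. At an unadjusted p under 0.05, 3 were higher with 2 lower, beside 9.07% and 7.45% of all probes. The summed signal of these markers ran from 15.2 to 15.3 in Foxf1+/- and from 14.6 to 15.3 in wildtype lungs. The part of these cells in the Cox4i2 values was not tested.

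Cox6b2, the testis isoform of subunit 6b, had levels of 7.93, 5.65, 7.30, 5.65, 8.49 and 8.49 in Foxf1+/- lungs, against 7.13, 5.65, 8.40, 8.61, 8.42 and 8.79 in wildtype lungs. Foxf1+/- replicates 2 and 4 and wildtype replicate 2 had raw signals of 9.59, 8.06 and 9.35, far below the 5th percentiles of their arrays (45.4 to 47.4), while the other 9 lungs had 157 to 334.8. Such cells, under a raw signal of 20, were present for 6 probes of the array, all in experiment A, and Cox6b2 was the single member among them. Its fold change of 0.09 ± 0.40 (adjusted p = 0.949) rests on these values, and a second, dim probe gave -0.02 ± 0.05.

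Around the chain, few genes of the other mitochondrial lists were called. Of 15 assembly factors of complex I and 28 of complexes II to V that were tested, 0 were called by limma in either direction. Their medians were 0.03 and 0.00. At an unadjusted p under 0.05, 2 were higher with 1 lower, and 2 higher with 2 lower. The shares of all probes at that threshold were 9.07% higher and 7.45% lower. Of 15 genes of electron carriers and entry points 0 were called by limma (1 higher at an unadjusted p under 0.05), with a median of 0.03. Coq7, an enzyme of ubiquinone synthesis, came nearest (0.24 ± 0.06, adjusted p = 0.0656). Cycs, the somatic cytochrome c, was at 0.30 ± 0.17 (adjusted p = 0.432). Of 17 enzymes of the tricarboxylic acid cycle and its entry 0 were called by limma (1 higher at an unadjusted p under 0.05), with a median of 0.06. Of 19 genes of membrane transport, import and dynamics 0 were called by limma (2 higher at an unadjusted p under 0.05), with a median of 0.09, and 15 fold changes were positive and 4 negative. The mean level of this list was 9.96 to 10.06 in Foxf1+/- lungs, against 9.90 to 9.95 in wildtype lungs, with no overlap. This was picked out after the values were seen, and the list is not alone in it. The mean level of the mast cell markers was 9.57 to 9.89 in Foxf1+/- and 8.39 to 8.62 in wildtype lungs. The levels of the chain, which overlapped, were medians relative to the wildtype mean of the experiment, a different measure. The difference between this list and the chain was not tested. The mitochondrial ribosome translates the mitochondrial subunits of the chain. Of its 74 genes tested 2 were called higher and 0 lower, beside 1.74% and 1.22% of all probes. At an unadjusted p under 0.05, 7 were higher and 2 lower, beside 9.07% and 7.45% of all probes. The median was 0.03, with 51 positive and 23 negative fold changes. Mrps18b was at 10.28 to 10.67 in Foxf1+/- and 9.90 to 10.28 in wildtype lungs (0.40 ± 0.09, adjusted p = 0.0371), and Mrps6 at 9.38 to 9.98 in Foxf1+/- and 8.995 to 9.52 in wildtype lungs (0.36 ± 0.09, adjusted p = 0.0454).

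Of 19 regulators of mitochondrial biogenesis that were tested, 0 were called higher and 1 lower, beside 1.74% and 1.22% of all probes. At an unadjusted p under 0.05, 3 were higher and 2 lower, beside 9.07% and 7.45% of all probes, and the median was 0.00. Polg2, the accessory subunit of the polymerase that copies mitochondrial DNA, had levels of 7.71, 7.71, 7.78, 7.73, 7.96 and 8.06 in Foxf1+/- lungs, against 8.08, 8.15, 8.39, 8.43, 8.29 and 8.56 in wildtype lungs. All Foxf1+/- lungs lay below all wildtype lungs, and Polg2 fell by 0.39 ± 0.05 (adjusted p = 0.00262), while Polg, the catalytic subunit, was at 0.01 ± 0.12. Among the factors of the promoter motifs, Nrf1 (0.03 ± 0.10), Gabpa (0.06 ± 0.05) and Esrra (-0.20 ± 0.05, adjusted p = 0.0671) were not called. Yy1 lay at the floor of the array, and genes of CREB factors are not described here. Tfam, which packs and transcribes mitochondrial DNA, was at -0.06 ± 0.09, and Pprc1, a coactivator related to PGC-1, was at 0.43 ± 0.10 (adjusted p = 0.0506). Its relative Ppargc1a was at 0.31 ± 0.18 (adjusted p = 0.444).

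Glycolytic enzymes and their regulators were set beside the chain as the other route to ATP. Of 14 genes tested 2 were called higher and 1 lower, beside 1.74% and 1.22% of all probes. At an unadjusted p under 0.05, 8 were higher and 2 lower, beside 9.07% and 7.45% of all probes. The median fold change of the 14 was 0.23, beside 0.01 for the chain and 0.00 for all probes. Gapdh was at 12.12 to 13.02 in Foxf1+/- and 11.56 to 12.69 in wildtype lungs (0.41 ± 0.10, adjusted p = 0.042), and Pgam1, phosphoglycerate mutase, at 9.10 to 9.47 in Foxf1+/- and 8.73 to 9.18 in wildtype lungs (0.35 ± 0.09, adjusted p = 0.0487). Pdk1, the kinase that holds back pyruvate dehydrogenase and is no glycolytic enzyme itself, was at 8.40 to 8.997 in Foxf1+/- and 9.13 to 9.51 in wildtype lungs (-0.40 ± 0.10, adjusted p = 0.0495). Within each experiment the genotypes did not overlap for any of the 3. They are named because limma called them, so the lack of overlap is no further support. The mean level of the whole list, set against the wildtype mean of the same experiment, did overlap: it was -0.05 to 0.21 in Foxf1+/- and -0.09 to 0.09 in wildtype lungs of experiment A, and 0.07 and 0.25 in Foxf1+/- and -0.15 to 0.09 in wildtype lungs of experiment B. Foxf1+/- replicate 3 and wildtype replicate 6, the lowest of their genotypes for this list, were also the lowest for the cardiac muscle markers, and Foxf1+/- replicates 2, 4 and 6 were the 3 highest of their genotype for both. The part of muscle in the glycolytic values was not tested. No test set the list against the chain.

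**Figure D5:**
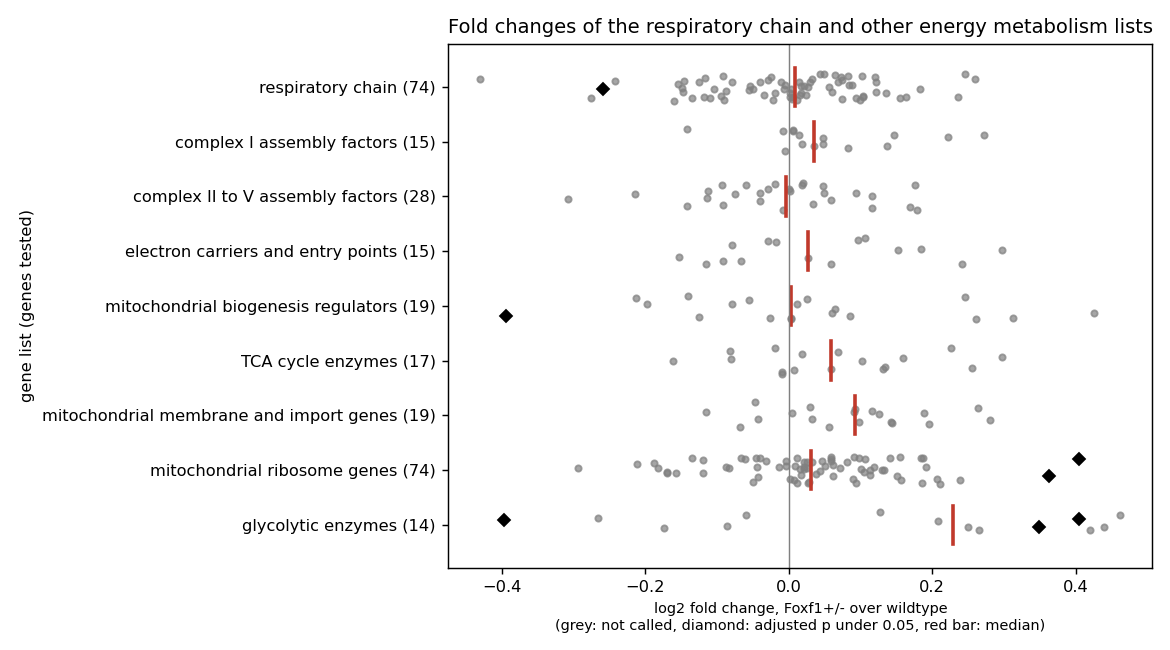
Log2 fold change of Foxf1+/- over wildtype lungs for the genes tested of the respiratory chain and of 8 other lists, with grey points for genes not called, diamonds for called genes and red bars for medians. The median lies at 0.01 for the chain, between 0.00 and 0.09 for the other mitochondrial lists and at 0.23 for the glycolytic list.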

How the data were processed

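Total RNA of 12 whole lungs was labelled and hybridized to Illumina MouseWG-6 v2.0 arrays. The authors deposited raw probe signal intensity (linear, with no background subtraction or normalization) and processed log2 values. Per their methods the log2 values came from lumi, by robust spline normalization and a variance stabilizing transformation, and ComBat took out the difference between 2 array experiments, in versions the sources used here do not give. The raw intensities were analysed, after 18 of 45281 probes with shifted cells were left out. Signals were corrected with normexp (offset 50) and quantile normalized in limma 3.58.1 (R 4.3.3). The table holds no detection p-values, so that neqc was not possible and probes with a mean above the 25th percentile were kept (33947), and the offset damps fold changes of dim genes. The labels do not name the experiments, which were inferred by 2-means on raw signal percentiles (5th, 50th and 95th) (mean silhouette 0.733). Limma fitted genotype and experiment, with two-sided moderated tests and adjustment after Benjamini-Hochberg over all probes. Each lung is a separate animal, and p-values measure the spread between these lungs.

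The probe brightest in the processed table stood for a gene. Symbols came from the array annotation (34874 probes with 1 symbol, 18 with several, 10371 with none), and all 78 members matched RefSeq (GRCm38.p6). The floor was set 0.5 above the 5th percentile of probe means, at 6.38. Correlations were tested by permutation, exact within experiments. Members and lists were chosen with earlier results of these data known. Named were the called members, the 6 highest and 6 lowest fold changes, tissue isoforms and their partners, X-linked and core subunits and called genes of the lists, and further genes chosen after their values were seen. Lists of ciliated, T and NK, macrophage and erythroid markers had 0 called members, except for 1 lower erythroid gene, Hbb-b2, although 1 wildtype lung stood apart in T and NK markers. Alternatives covered the background correction, scaling, filter, blocks, covariates, probe choice, the authors' values, the methods' t-test and each array left out.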

Additional observations from a re-analysis of the deposited data

Results flagged for a closer look

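Dixon's criterion was applied within each genotype to the levels of Foxf1 and of the members singled out by the naming rule (not of every member), to the median levels of the complexes and to the mean levels of the gene lists, 122 groups of 6 arrays in all. In 5 of them 1 sample lay far from the others, where chance alone flags about 1 in 20 groups. Cox6b1, the isoform of subunit 6b of complex IV made in most tissues, was at 13.11 in Foxf1+/- replicate 5, while the nearest of the other Foxf1+/- lungs was at 13.54, a gap of 0.707 of the range of the genotype. Wildtype lungs of the same experiment had 13.20, 13.22, 13.58 and 13.22. The 6 Foxf1+/- lungs span both experiments, and levels of Cox6b1 were higher in experiment A than in experiment B by 0.29 (limma, adjusted p = 0.0248), so that the gap includes that difference. The other Foxf1+/- lung of experiment B was at 13.56. Foxf1+/- replicate 5 also had the lowest median of all members. Among the lists, wildtype replicate 5 was at 7.878 for the T and NK cell markers, with the nearest wildtype lung at 6.304, and at 6.905 for the uncoupling proteins, with the nearest at 6.32. Wildtype replicate 6 was at 7.056 for the skeletal muscle markers, with the nearest at 8.692, and at 9.424 for the ciliated cell markers, with the nearest at 9.192.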

How the results depend on the processing

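No member was called higher except with the authors' processed values and no experiment block, an alternative chosen after seeing the data (1 higher, Atp5pb, and 3 lower, Ndufa13, Ndufa6 and Ndufb9). The methods' t-test called 0 members higher and 3 lower (Ndufb9, Ndufa13 and Ndufb4). Ndufb9 was the 1 member called lower with no background correction, the authors' values with the experiment block, no filter, array weights, either muscle level as a covariate, the mean of a gene's probes, the probe brightest in the raw table and the dropped names included. With an offset of 16, median scaling, the 50th percentile as filter, no experiment block, either experiment alone, the Xist level as a covariate, and without Foxf1+/- replicate 3 and wildtype replicate 6 together, the count called lower was 0. Leaving out single arrays gave 0 to 1, and 405 to 1108 called probes in all, with 405, 436 and 432 when Foxf1+/- replicates 6 and 5 and wildtype replicate 1 were left out, beside 1007. Over the other alternatives the total was 10 to 2582. The median fold change of the members stayed between -0.04 and 0.06. The Foxf1 level was lower in Foxf1+/- lungs in every fit but not called with no experiment block (-0.73, adjusted p = 0.184), in experiment A alone (-0.80, adjusted p = 0.174), in experiment B alone (-1.20, adjusted p = 0.0695) or with the replicate block (-0.73, adjusted p = 0.0946). Its exact permutation p was 0.0216 over all arrays and 0.00444 within experiments. The sign of Cox4i2 turned with no experiment block (0.56, adjusted p = 0.78) and with the replicate block in its place (0.56, adjusted p = 0.523). In neither fit was the experiment a term, and 4 of 6 Foxf1+/- and 2 of 6 wildtype arrays belong to experiment A. Of all these fits Cox4i2 was called only in that without Foxf1+/- replicate 1 (-0.49, adjusted p = 0.0403). Other named members kept their side of the threshold, while uncalled fold changes took either sign for Cox6a2, Cox7a1, Cox8b, Cox6b2, Cox6a1, Cox6b1, Cox7a2, Cox7a2l, Cox7b, Ndufa1, Ndufa4, Ndufb11, Uqcrfs1, Atp5g2 and Atp5g3. The replicate numbers were not taken to pair the lungs. Deviations from the genotype means correlated at -0.486 to 0.483 between lungs of the same number. The experiment was not removed from these deviations, so the correlations cannot show whether the numbers pair littermates. A fit with the replicate block called 724 probes and 0 members.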
